A study of Mus musculus with 8 samples.

Results

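The genes described are those of the mitochondrial ribosome whose symbols begin with Mrpl (named for the large subunit, 47 genes) or Mrps (named for the small subunit, 29 genes) followed by a number. In 3 of the 29 Mrps genes the name and the place differ: Mrps18a and Mrps30 encode large-subunit proteins, and the product of Mrps36 belongs to the oxoglutarate dehydrogenase complex. The symbol alone chose them, and they make up 76 of the 23234 gene symbols in the expression table. RNA was sequenced from germinal centre B cells of mouse spleen, B cells that, once activated, diversify their antigen receptors by mutation and are selected for binding. Cells were sorted either as light zone (LZ; CD86 high, CXCR4 low), where B cells are selected, or as dark zone (DZ; CD86 low, CXCR4 high), where they divide. All donors were C57BL/6 mice carrying Prdm1(f/f), ERT2cre(KI/+) and B1-8hi(KI/+), that is, floxed alleles of the plasma cell factor Blimp1, a tamoxifen-activated recombinase and an antigen receptor that binds the hapten NP. The groups differed in Bach2, a repressor of transcription in B cells, which was labelled either Bach2(+/+) or Bach2(f/f). This gave 4 groups of 2 libraries: Bach2(+/+) LZ, Bach2(f/f) LZ, Bach2(+/+) DZ and Bach2(f/f) DZ.

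Naive donor B cells went into wild-type recipients, which received tamoxifen (3 mg) for 3 days before immunization with NP-CGG in alum. NP-binding donor cells negative for CD38 were taken on day 10 from the pooled spleens of 5 recipients, about 30000 cells per library. No group with intact Prdm1 is analysed here, and every group had the recombinase and tamoxifen. The labels do not say whether the 2 libraries of a group came from separate pools, so p-values reflect only how far these libraries spread, which may be technical. Donor age is not given in the sources used here.

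Mitochondrial ribosomes translate the few respiratory chain subunits that mitochondrial DNA still encodes. Their own proteins are all encoded in the nucleus, made in the cytosol and imported into mitochondria, where they assemble on ribosomal RNA made from mitochondrial DNA. Some have relatives in bacterial ribosomes and others occur only in mitochondria. Germinal centre B cells are known to depend on mitochondrial respiration, and mitochondrial translation has been linked to their entry into germinal centres in mice.

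Values are FPKM (fragment number divided by transcript length and by the size of the library), a level per gene length that can be compared between genes. Differences are given on the log2(FPKM + 1) scale with their SE, from limma fitted to the 10610 genes that reached 1 FPKM in 2 or more libraries. A gene is said to have risen or fallen only at a Benjamini-Hochberg adjusted p under 0.05 over all of those genes. Summed FPKM per library ran from 502214 to 540885, and 10192 to 10250 genes reached 1 FPKM. Absolute depth is unknown; relative depth, read from the steps between low values, was 1.43 times higher in DZ than in LZ on average. Bach2 itself was at 49.8 to 96.2 FPKM over the 8 libraries, with means of 51.6 in Bach2(+/+) LZ, 63.6 in Bach2(f/f) LZ, 75.4 in Bach2(+/+) DZ and 95.3 in Bach2(f/f) DZ. It was thus higher, not lower, in the libraries labelled Bach2(f/f). The table gives 1 value per gene and the sources used here do not say which part was deleted, so this level does not check the deletion, and the groups are named as labelled throughout. Prdm1 was below 1 FPKM in every library and was not tested. Its means were 0.04 FPKM in Bach2(+/+) LZ, 0.97 in Bach2(f/f) LZ, 0.08 in Bach2(+/+) DZ and 0.35 in Bach2(f/f) DZ. Its values were thus higher with Bach2(f/f) in each zone, at a level below the filter. Germinal centre B cell markers were present in every library, with Cd79a, a signalling subunit of the antigen receptor, at 606 to 808 FPKM. The 6 T cell markers in the table summed to 53.8 to 65.1 FPKM in LZ and 32.8 to 35.5 in DZ, nearly all of it Lck, with Cd3e, Cd3g and Cd4 at or near 0. Myeloid markers stood apart in both LZ replicate 2 libraries: their 7 genes summed to 15.2 and 59.0 FPKM in Bach2(+/+) LZ, to 28.6 and 149 in Bach2(f/f) LZ, and to 6.54 to 8.11 in DZ.

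All 76 genes passed the filter, and none was listed at 0 in any library. The lowest value in any library was 4.33 FPKM and the highest 176 FPKM, and the median of the 76 mean levels was 32.3 FPKM. Mean levels of 19 genes were over 50 FPKM and those of 4 were under 10 FPKM. Adjacent genes in the order of levels could rarely be told apart: in 1 of the 75 neighbouring pairs did the 8 library values of the pair not overlap.

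Mrps21, a small-subunit protein with a bacterial relative, had the highest mean level in each of the 4 groups, at 146 ± 6.65, 165 ± 15.4, 161 ± 9.76 and 151 ± 3.14 FPKM (SD, n = 2) in Bach2(+/+) LZ, Bach2(f/f) LZ, Bach2(+/+) DZ and Bach2(f/f) DZ. Among Mrpl genes the highest levels over all libraries were those of Mrpl52 (127 FPKM), which is specific to mitochondria, and of Mrpl18 (101 FPKM), Mrpl33 (99.8 FPKM) and Mrpl42 (88.1 FPKM). The next Mrps genes were Mrps18c (96.0 FPKM), the S18 form closest to the bacterial protein, and Mrps16 (84.2 FPKM). Mrpl17, which lies near the exit of the tunnel through which new proteins leave, had the lowest mean in every group, at 5.11 ± 0.110, 6.98 ± 0.322, 4.33 ± 0.00152 and 5.00 ± 0.0616 FPKM in the same order. Mrpl35 followed with a mean of 9.16 FPKM, and the lowest Mrps means were those of Mrps6 (11.6 FPKM) and Mrps31 (11.96 FPKM). The mean level of Mrps21 was 29.1 times that of Mrpl17.

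Summed over the 76 genes, the level was 2867 and 2827 FPKM in the Bach2(+/+) LZ libraries and 3466 and 3324 FPKM in the Bach2(f/f) LZ libraries. In DZ it was 2779 and 3006 FPKM with Bach2(+/+) and 3061 and 3054 FPKM with Bach2(f/f). Both Bach2(f/f) LZ libraries were thus above all others, and in each zone the genotypes did not overlap. The ratio of the group means, Bach2(f/f) to Bach2(+/+), was 1.19 in LZ and 1.06 in DZ. Bach2(+/+) DZ replicate 1 was the lowest library, and was 0.11 lower than replicate 2 on the log2(FPKM + 1) scale for the median gene of the family.

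**Figure D1:**
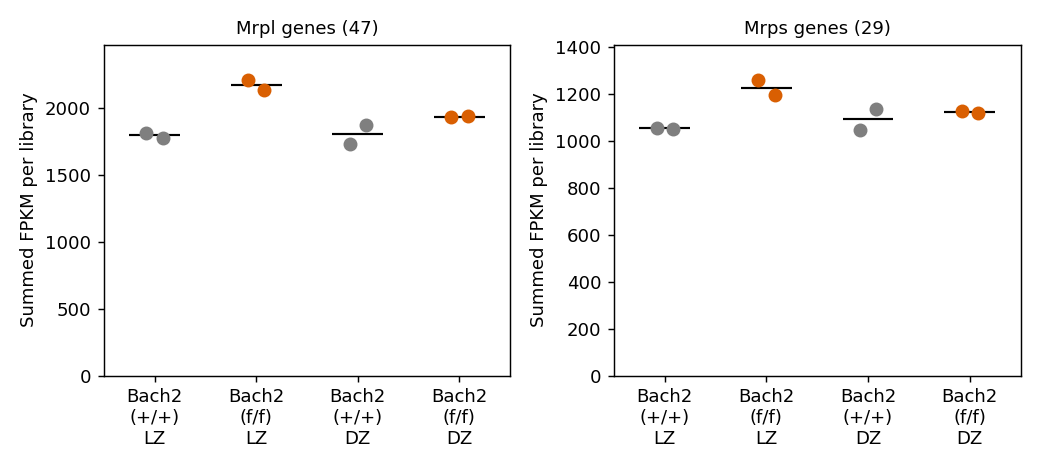
Summed FPKM of the 47 Mrpl and the 29 Mrps genes in each of the 8 libraries (points, by group on the horizontal axis; bars are means of 2 libraries). The Bach2(f/f) LZ libraries, at 2208 and 2131 FPKM for Mrpl and 1258 and 1193 FPKM for Mrps, lie above all others.

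The Mrpl genes alone summed to 1794 ± 26.2 FPKM in Bach2(+/+) LZ, 2169 ± 54.3 in Bach2(f/f) LZ, 1802 ± 98.9 in Bach2(+/+) DZ and 1935 ± 2.69 in Bach2(f/f) DZ (SD, n = 2). The Mrps genes summed to 1053 ± 1.77, 1225 ± 46.3, 1091 ± 61.5 and 1122 ± 7.57 FPKM in the same order. The ratio of the Mrpl to the Mrps sum was 1.689 to 1.72 in Bach2(+/+) LZ and 1.755 to 1.787 in Bach2(f/f) LZ. In DZ it was 1.651 to 1.654 with Bach2(+/+) and 1.714 to 1.734 with Bach2(f/f). The Mrpl sum was thus somewhat higher relative to the Mrps sum in the libraries labelled Bach2(f/f), without overlap in either zone. With Mrps18a and Mrps30 counted in the large subunit and Mrps36 left out (49 and 26 genes), the ratio was 2.003 and 1.939 in Bach2(+/+) LZ, 2.033 and 2.055 in Bach2(f/f) LZ, 1.954 and 1.951 in Bach2(+/+) DZ and 2.037 and 2.067 in Bach2(f/f) DZ, again without overlap. This ratio was not tested. As a share of all FPKM, the family took 0.532% ± 0.00226, 0.631% ± 0.0159, 0.561% ± 0.0107 and 0.604% ± 0.000495 (SD, n = 2) in the same order of groups.

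In light zone cells, mitochondrial ribosomal protein genes were higher in the libraries labelled Bach2(f/f) than in those labelled Bach2(+/+). Of the 76 genes, 31 rose (40.8%), against 18.4% of all genes tested. None fell by limma, at the adjusted or at an unadjusted p under 0.05, against 12.7% of all genes tested at the adjusted threshold. At an unadjusted p under 0.05, 46 were higher by limma. The share of all genes at that unadjusted p was not counted, so this number has no background. The median difference was 0.23, against 0.02 for all genes tested. Of the 76 differences 74 were positive, against 5710 of the 10610 genes tested. In 66 genes (86.8%) both Bach2(f/f) libraries were above both Bach2(+/+) libraries, which held for 36.5% of all genes tested. In 1 gene, Mrps16, both were below, which held for 29.3% of all genes tested. The changes past the threshold were small in size, from 0.21 to 0.54.

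The count moved with single libraries: 13 genes rose without Bach2(f/f) LZ replicate 1 (9.63% of all genes tested rose then) and 19 without Bach2(f/f) LZ replicate 2 (10.9%). Without both LZ replicate 2 libraries, the ones richer in myeloid markers, 10 rose (5.51%) and the median difference was 0.26. The part of myeloid RNA in the differences was not tested. In bulk RNA a different mix of cells and a different amount of RNA per cell cannot be told apart.

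Among Mrpl genes, 21 of 47 rose (44.7%) and none fell. Mrpl13, a relative of bacterial L13, was at 52.4 and 53.5 FPKM in Bach2(+/+) LZ, 75.5 and 74.7 in Bach2(f/f) LZ, 49.9 and 50.8 in Bach2(+/+) DZ and 51.6 and 53.1 in Bach2(f/f) DZ. Only the Bach2(f/f) LZ libraries stood above the rest, and the LZ difference was 0.50 ± 0.04 (SE, n = 2 per group; adjusted p = 0.000887, limma). Exons of Mrpl13 overlap those of Mtbp on the other strand, and nothing in the labels says that strand was kept in the libraries, so part of its reads may be shared. Mrpl42, specific to mitochondria, was at 78.1 and 78.4 FPKM in Bach2(+/+) LZ, 112 and 116 in Bach2(f/f) LZ, 72.6 and 74.9 in Bach2(+/+) DZ and 82.5 and 89.7 in Bach2(f/f) DZ. Its libraries did not overlap between genotypes in either zone, and it had the largest LZ difference of the family, 0.54 ± 0.05 (adjusted p = 0.00125, limma). Mrpl18, of the central protuberance at the top of the large subunit, was at 89.6 and 86.7 FPKM in Bach2(+/+) LZ and 113 and 111 in Bach2(f/f) LZ. The groups did not overlap, and the difference was 0.34 ± 0.04 (adjusted p = 0.00191, limma).

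Mrpl47, which sits near the tunnel exit, was at 18.3 and 16.9 FPKM in Bach2(+/+) LZ and 23.0 and 23.2 in Bach2(f/f) LZ, a difference of 0.38 ± 0.05 (adjusted p = 0.00376, limma). Mrpl15, a relative of bacterial L15, was at 16.4 and 17.1 FPKM against 21.2 and 20.8, a difference of 0.30 ± 0.04 (adjusted p = 0.00413, limma). Neither gene overlapped between the genotypes in LZ. Exons of Mrpl18 overlap Tcp1 and those of Mrpl47 overlap Actl6a and Ndufb5 on the other strand, so these values carry the same uncertainty as that of Mrpl13.

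Among Mrps genes, 10 of 29 rose (34.5%) and none fell; all 10 are among the 26 whose proteins lie in the small subunit (38.5%). Mrps18b, 1 of the 3 S18 forms of mammals, was at 36.1 and 38.1 FPKM in Bach2(+/+) LZ, 53.2 and 51.4 in Bach2(f/f) LZ, 32.7 and 35.5 in Bach2(+/+) DZ and 39.1 and 35.6 in Bach2(f/f) DZ. The Bach2(f/f) LZ libraries stood above the rest, with an LZ difference of 0.49 ± 0.06 (adjusted p = 0.00313, limma). Mrps5, a relative of bacterial S5, was at 21.2 and 19.9 FPKM in Bach2(+/+) LZ, 29.9 and 28.2 in Bach2(f/f) LZ, 19.3 and 22.0 in Bach2(+/+) DZ and 26.1 and 25.98 in Bach2(f/f) DZ. The genotypes did not overlap in either zone, and the LZ difference was 0.48 ± 0.07 (adjusted p = 0.00418, limma).

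Mrps2, a relative of bacterial S2, was at 14.01 and 14.04 FPKM in Bach2(+/+) LZ and 18.7 and 18.9 in Bach2(f/f) LZ, a difference of 0.40 ± 0.06 (adjusted p = 0.00483, limma). Mrps27, a pentatricopeptide repeat protein specific to mitochondria, was at 13.6 and 11.8 FPKM against 17.6 and 17.97, a difference of 0.45 ± 0.08 (adjusted p = 0.00796, limma). Neither overlapped between the genotypes in LZ. Without both LZ replicate 2 libraries the adjusted p was 0.0568 for Mrpl47, 0.057 for Mrps5, 0.0757 for Mrps2 and 0.0951 for Mrps27 (limma), so these lost the call there. Their differences there were 0.31 for Mrpl47, 0.48 for Mrps5, 0.39 for Mrps2 and 0.34 for Mrps27, with fewer libraries in the fit. Over all alternatives their adjusted p ran from 0.00277, 0.00186, 0.00363 and 0.00651 up to those values. The other 5 genes of this group kept adjusted p-values of 0.0333 to 0.0483 there (limma).

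**Figure D2:**
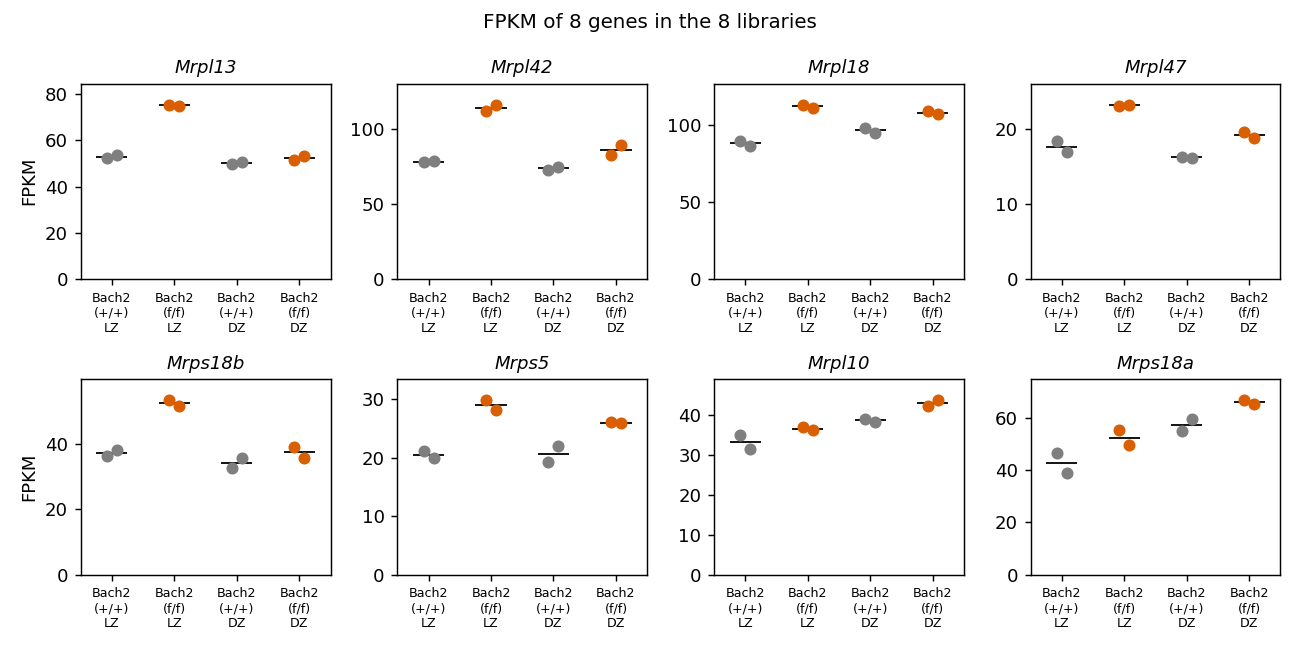
FPKM in each library (points; lines are means of 2) for 8 genes named in the text, by group, each panel with its own axis from 0. In Mrpl13, Mrpl42, Mrpl18, Mrpl47, Mrps18b and Mrps5 the Bach2(f/f) LZ libraries lie above both Bach2(+/+) LZ libraries, as for Mrpl42 with 112 and 116 against 78.1 and 78.4 FPKM, and in Mrpl10 and Mrps18a the DZ libraries of each genotype lie above its LZ libraries.

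The counts by place and origin are read against the 18.4% of all genes tested that rose in LZ. Of the Mrpl genes as a whole 44.7% rose, and of the Mrps genes 34.5%. Whether any place or origin differs from the rest of its subunit was not tested, and the lists by place are short. By place in the ribosome, 3 of the 5 genes of the stalk, which contacts the translation factors, rose in LZ (60%), with a median difference of 0.34. In the central protuberance 5 of 7 rose (71.4%), with a median of 0.34, and at the tunnel exit and membrane face 4 of 6 rose (66.7%), with a median of 0.30. The stalk protein Mrpl12, whose human form also binds the mitochondrial RNA polymerase, was at 80.4 and 72.0 FPKM in Bach2(+/+) LZ and 113 and 97.1 in Bach2(f/f) LZ, a difference of 0.46 ± 0.09 (adjusted p = 0.0120, limma). By origin, 12 of the 30 large-subunit genes with bacterial relatives and 9 of the 17 specific to mitochondria rose (40% and 52.9%), with medians of 0.24 and 0.23. In the small subunit, 8 of 16 with bacterial relatives rose (50%; median 0.24), and 2 of 10 specific to mitochondria rose (20%, near the background; median 0.20). Of the 3 Mrps genes whose proteins lie outside the small subunit, none passed the threshold in LZ by limma, and their differences ran from 0.10 to 0.29.

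The 2 genes with a negative difference in LZ were Mrpl41 and Mrps16. Mrps16, a relative of bacterial S16, was at 91.0 and 90.8 FPKM in Bach2(+/+) LZ and 89.0 and 83.1 in Bach2(f/f) LZ, a difference of -0.08 ± 0.07 (adjusted p = 0.451, limma). In DZ it was at 83.6 and 86.1 FPKM with Bach2(+/+) and at 69.4 and 80.5 with Bach2(f/f), without overlap, a difference of -0.18 ± 0.07 (adjusted p = 0.168, limma). Mrpl41 was at 9.93 and 11.1 FPKM in Bach2(+/+) LZ and 10.0 and 10.3 in Bach2(f/f) LZ, with the second group inside the range of the first.

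In dark zone cells the threshold was passed by 4 of the 76 genes, all higher with Bach2(f/f) (5.26%), against 6.63% of all genes tested, so the share was near the background. None fell (5.23% of all genes did). At an unadjusted p under 0.05, 19 were higher and 1 was lower by limma. All genes were not counted at that unadjusted p, so these numbers have no background either. The median difference was 0.10, against 0.01 for all genes tested. Of the 76 differences 60 were positive, against 5689 of the 10610 genes tested. Without Bach2(+/+) DZ replicate 1 the median was 0.03. Both Bach2(f/f) libraries were above both Bach2(+/+) libraries in 35 genes (46.1%, against 32.3% of all genes tested) and below them in 4 (against 26.3%).

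The 4 genes were Mrps5 (0.32 ± 0.07, adjusted p = 0.0338), Mrpl47 (0.23 ± 0.05, adjusted p = 0.0396), Mrpl42 (0.22 ± 0.05, adjusted p = 0.0381) and Mrpl18 (0.16 ± 0.04, adjusted p = 0.0428), all by limma. In DZ, Mrpl47 was at 16.3 and 16.1 FPKM with Bach2(+/+) and 19.5 and 18.8 with Bach2(f/f), and Mrpl18 at 98.2 and 94.9 against 109 and 107 FPKM. In none of the 4 did the genotypes overlap. All 4 also rose in LZ, making up 12.9% of the 31 that rose there and 100% of those that rose in DZ. Both comparisons share the estimated spread of each gene, and the overlap over all genes tested was not counted. These shares therefore have no background to be read against. None of the 4 was called without Bach2(f/f) DZ replicate 1, without Bach2(f/f) DZ replicate 2 or without Bach2(+/+) DZ replicate 1, and of the 4 only Mrps5 was called without Bach2(+/+) DZ replicate 2. The same held without Bach2(f/f) LZ replicate 1 or replicate 2, which enter only through the shared spread. Mrpl42 lost the call without any 1 of the 8 libraries. The largest difference in DZ was that of Mrpl55, of the central protuberance, at 12.9 and 16.1 FPKM with Bach2(+/+) and 18.4 and 19.5 with Bach2(f/f) (0.38, adjusted p = 0.0571, limma). That difference was 0.23 without Bach2(+/+) DZ replicate 1 and 0.52 without Bach2(+/+) DZ replicate 2, where it passed (adjusted p = 0.0296, limma); over all alternatives its adjusted p ran from 0.0244 to 0.233. Mrpl12, at 68.9 and 74.5 against 91.4 and 85.4 FPKM, did not pass either (0.30, adjusted p = 0.0859, limma), nor did Mrps17 (0.21, adjusted p = 0.0711), Mrps10 (0.27, adjusted p = 0.112) and Mrps22 (0.25, adjusted p = 0.115).

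**Figure D3:**
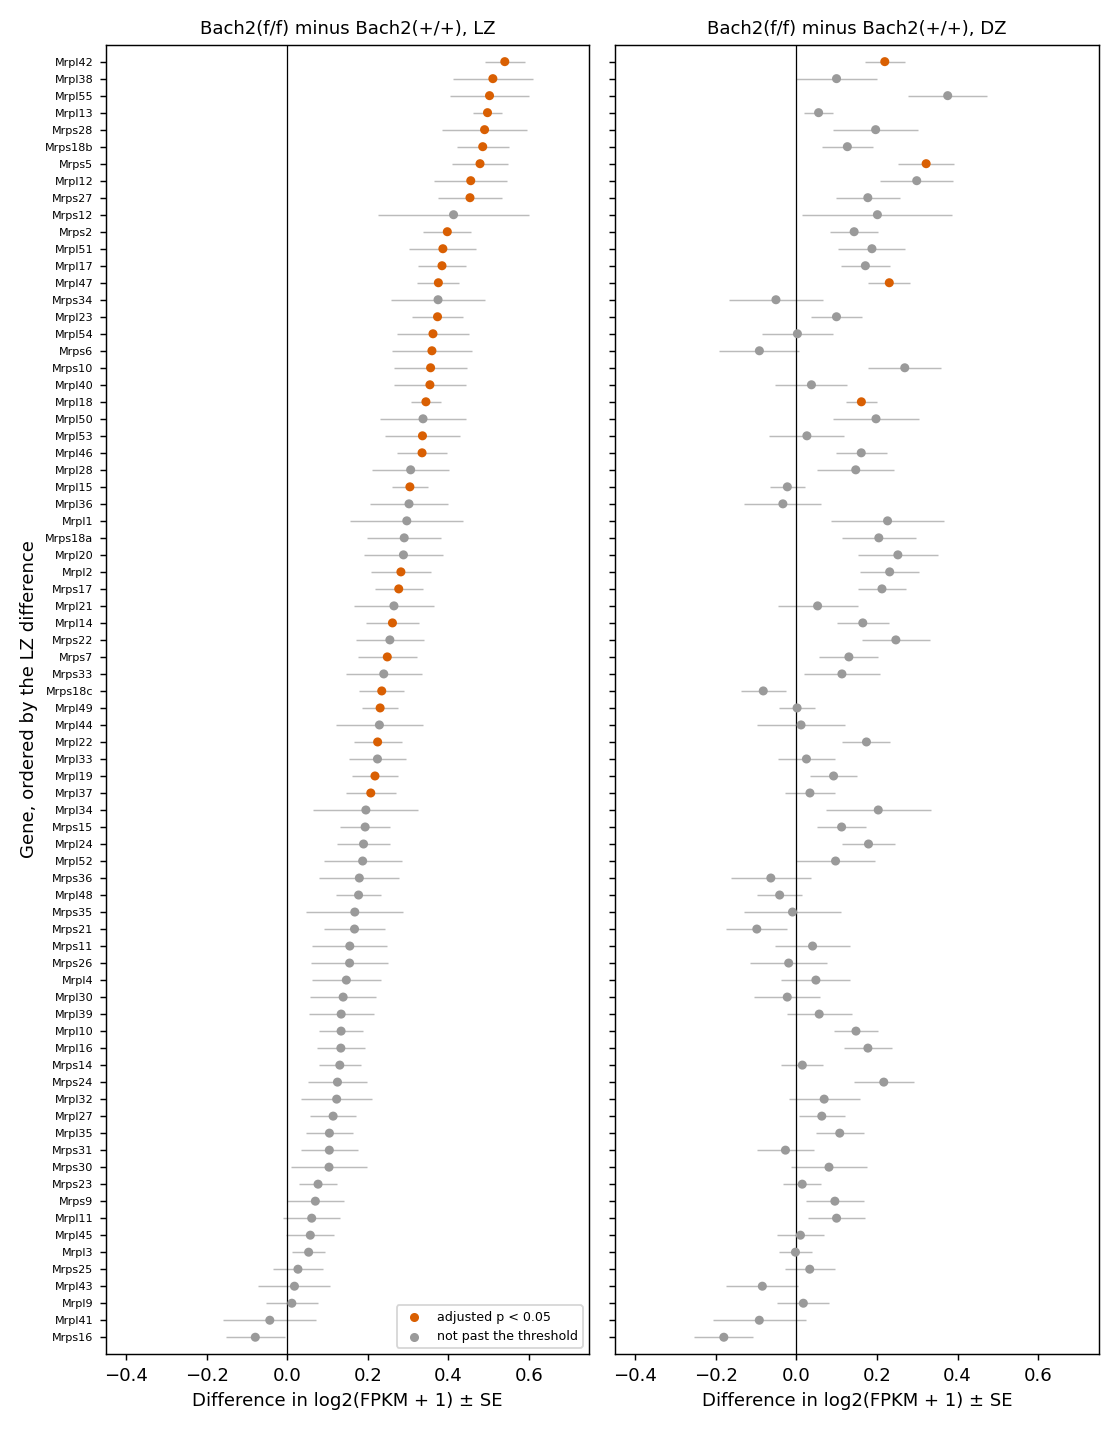
Difference between Bach2(f/f) and Bach2(+/+) on the log2(FPKM + 1) scale in LZ (left) and DZ (right) for each of the 76 genes, in the order of the LZ difference; points are estimates, lines their SE, and coloured points passed the adjusted threshold. In LZ 74 of 76 points lie right of 0 and 31 are coloured, and in DZ 60 lie right of 0 and 4 are coloured.

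The difference between the LZ and DZ genotype effects was itself tested. None of the 76 genes passed, against 0.0283% of all genes tested (3 genes); at an unadjusted p under 0.05, 19 of the 76 (25%) had a larger effect in LZ and none a smaller one by limma, against 11.6% of all genes in either direction. The median difference of effects was 0.13; it was 0.07 without Bach2(+/+) DZ replicate 2 and 0.20 without Bach2(+/+) DZ replicate 1. The smallest p-values were those of Mrpl13, with a difference of 0.44 ± 0.05 (adjusted p = 0.142, limma), and of Mrpl15, with 0.33 ± 0.06 (adjusted p = 0.306, limma). That more genes passed in LZ than in DZ is therefore not a tested difference for any single gene.

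With Bach2(+/+), light and dark zone cells had similar levels of the family as a whole. The summed level in LZ was 0.984 times that in DZ, and the median difference, LZ minus DZ, was 0.0003, or -0.05 with each library scaled to the same total. In LZ, 4 genes were higher (5.26%, against 15.2% of all genes tested) and 6 were lower (7.89%, against 16.1%). With that scaling, 2 were higher and 13 lower. The share of all genes with that scaling is not given here, so these numbers are not a result about the family. The counts without that scaling moved when single libraries were left out, and the median difference then ran from -0.04 to 0.05. The LZ libraries were both above the DZ libraries in 24 genes (31.6%, against 32.7% of all genes tested) and both below in 14 (against 33.1%).

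The 4 higher genes were all of the large subunit: Mrpl3, Mrpl15, Mrpl17 and Mrpl24. Mrpl3, a relative of bacterial L3, was at 56.4 and 56.8 FPKM in LZ and 49.2 and 49.3 in DZ, without overlap. The 6 lower genes were Mrpl10, Mrpl18, Mrpl49, Mrps18a, Mrps18c and Mrps26. Mrpl49, specific to mitochondria, was at 28.4 and 27.5 FPKM in LZ and 35.3 and 35.6 in DZ, a fall of -0.33 ± 0.04 (adjusted p = 0.00286, limma). Mrps18a, the S18 form that lies in the large subunit, had the largest fall, from 55.0 and 59.3 FPKM in DZ to 46.3 and 38.9 in LZ (-0.42, adjusted p = 0.0170, limma). Of the other S18 forms, Mrps18c was also lower in LZ (-0.31, adjusted p = 0.00867, limma), while Mrps18b was 0.12 higher and did not pass (adjusted p = 0.206, limma). The forms were not tested against each other.

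With Bach2(f/f), more genes were higher in the light zone. The summed level in LZ was 1.11 times that in DZ, and the median difference was 0.16, against 0.01 for all genes tested. In LZ, 21 genes were higher (27.6%, against 18% of all genes tested) and 3 were lower (3.95%, against 16.1%). With each library scaled to the same total, 13 were higher (12.9% of all genes) and 6 lower (24.7% of all genes); that scaling moved the median of all genes to -0.07 and that of the family to 0.07. Single libraries left out in turn moved the counts as well, and the median difference then ran from 0.12 to 0.19. The LZ libraries were both above the DZ libraries in 46 genes (60.5%, against 37.7% of all genes tested) and both below in 9 (against 35.5%). Myeloid markers, Lck (nearly all of the T cell marker sum) and depth differed between the zones as well. The myeloid sum was 28.6 and 149 FPKM in LZ and 7.46 and 8.00 in DZ. Without both LZ replicate 2 libraries 17 genes were higher (11.4% of all genes tested) and 1 was lower. The part of these markers and of depth in the result was not tested.

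Mrps6, a relative of bacterial S6, had the largest zone difference, with 14.4 and 16.5 FPKM in LZ and 9.32 and 9.17 in DZ (0.68 ± 0.10, adjusted p = 0.00331, limma). Its exons overlap those of Slc5a3 on the same strand, so its reads cannot be fully separated from that gene. Mrpl15 was at 21.2 and 20.8 FPKM in LZ and 14.2 and 14.3 in DZ (0.52 ± 0.04, adjusted p = 0.000451, limma), and Mrpl13 at 75.5 and 74.7 against 51.6 and 53.1 FPKM (0.51 ± 0.04, adjusted p = 0.000248, limma). The zones did not overlap in any of these 3 genes. Mrps18b (0.48), Mrpl23 (0.44, a gene with an annotated pseudogene), Mrpl17 (0.41), Mrpl42 (0.41), Mrps27 (0.36) and Mrps2 (0.31) were also higher in LZ. The 3 lower genes were Mrps18a (-0.33, adjusted p = 0.0334), Mrpl10 (-0.23, adjusted p = 0.0210) and Mrpl9 (-0.21, adjusted p = 0.0476), by limma. Mrpl10, which anchors the stalk, was at 36.9 and 36.1 FPKM in LZ and 42.2 and 43.6 in DZ.

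The zone comparisons of the genotypes use different libraries. All 4 genes higher in LZ with Bach2(+/+) were also higher with Bach2(f/f), which is 100% of the first list and 19% of the second. Of the lower genes, Mrpl10 and Mrps18a were shared, 33.3% and 66.7% of the lists. The estimated spread of each gene is common to both comparisons, and the same overlap over all genes tested was not counted. No background is thus given for these shares.

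**Figure D4:**
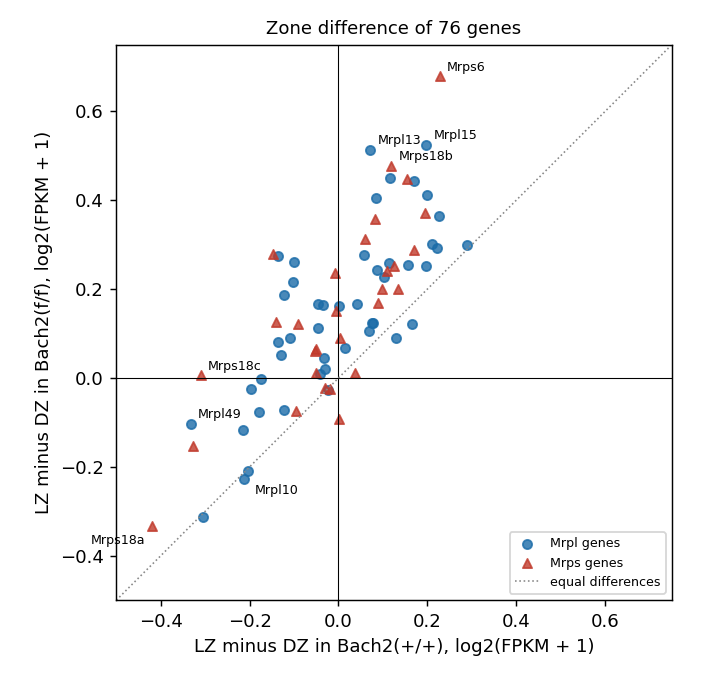
Difference between LZ and DZ on the log2(FPKM + 1) scale with Bach2(+/+) (horizontal) against Bach2(f/f) (vertical) for each of the 76 genes, Mrpl and Mrps marked apart, with a dotted line where both are equal. The points centre near 0 horizontally (median 0.0003) and above 0 vertically (median 0.16), with Mrps6 highest at 0.68 and Mrps18a lowest at -0.33.

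Promoter sequences are shown for 4 genes that rose in LZ, 2 Mrpl and 2 Mrps, chosen because they hold at least 1 of the 5 motifs searched. The windows of Mrpl47, Mrps5 and Mrps2, genes described above as well, held none of the 5. Each is the RefSeq promoter window of GRCm38.p6, 250 bases before to 50 after the gene start, 5′ to 3′ along the gene, with matched motifs in capitals. Mrpl42 is at chr10:95501900-95502199 (minus strand) and holds the YY1 motif AAGATGG. Mrpl18 is at chr17:12916042-12916341 (minus strand) and holds the ETS motif CCGGAAG and the reverse complement of the NFY motif CCAATC. Mrps18b is at chr17:35916391-35916690 (minus strand) and holds the NRF1 core GCATGCG, once with its reverse complement overlapping it and once alone, and the reverse complement of the ETS motif. Mrps27 is at chr13:99344536-99344835 (plus strand) and holds the reverse complement of the ETS motif and the YY1 motif.
Mrpl42: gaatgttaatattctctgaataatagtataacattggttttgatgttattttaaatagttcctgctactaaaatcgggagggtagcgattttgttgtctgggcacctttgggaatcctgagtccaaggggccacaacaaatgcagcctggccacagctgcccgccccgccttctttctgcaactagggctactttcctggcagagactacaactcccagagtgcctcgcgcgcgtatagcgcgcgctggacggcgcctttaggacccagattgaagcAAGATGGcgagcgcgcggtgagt
Mrpl18: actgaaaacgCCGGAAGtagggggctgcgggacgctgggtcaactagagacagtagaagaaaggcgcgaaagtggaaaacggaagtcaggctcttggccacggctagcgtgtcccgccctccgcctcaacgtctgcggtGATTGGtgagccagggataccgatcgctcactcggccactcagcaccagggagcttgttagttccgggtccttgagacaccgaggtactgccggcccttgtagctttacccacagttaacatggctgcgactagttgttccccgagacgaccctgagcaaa
Mrps18b: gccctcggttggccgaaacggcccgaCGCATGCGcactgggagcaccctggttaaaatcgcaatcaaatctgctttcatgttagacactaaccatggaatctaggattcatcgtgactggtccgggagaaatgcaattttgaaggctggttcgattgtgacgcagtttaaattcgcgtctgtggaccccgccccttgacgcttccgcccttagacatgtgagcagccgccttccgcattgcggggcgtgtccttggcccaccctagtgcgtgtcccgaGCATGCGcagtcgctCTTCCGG
Mrps27: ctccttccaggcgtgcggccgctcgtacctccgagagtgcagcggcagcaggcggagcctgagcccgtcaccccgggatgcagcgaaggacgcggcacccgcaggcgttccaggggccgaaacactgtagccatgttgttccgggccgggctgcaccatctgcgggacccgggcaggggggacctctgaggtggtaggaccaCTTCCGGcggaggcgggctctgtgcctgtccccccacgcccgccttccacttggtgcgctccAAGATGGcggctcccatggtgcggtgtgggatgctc

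A RefSeq promoter window was matched for 67 of the 76 genes, by symbol, and for 8367 of the 10610 genes tested. Motifs were searched on both strands. The ETS motif CCGGAAG, read by GABP among others, was in 24 of the 67 windows (35.8%), against 23.1% of tested genes and 9.93% of all 27025 genes with a window. The YY1 motif AAGATGG was in 13 (19.4%), against 9.05% and 7.28%. The NRF1 core GCATGCG was in 8 (11.9%), against 7.97% and 4.01%. The E-box CACGTG, read by MYC among others, was in 5 (7.46%), against 12.2% and 8.09%, and the NFY motif CCAATC was in 13 (19.4%), against 24.7% and 18.2%. Of the 31 genes that rose in LZ, 25 had a window, and 8 of these held the ETS motif (32%) against 16 of the 42 others (38.1%). These are matches of letters and not shown sites.

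Many of the genes start close to another gene that runs the other way. A coding gene starting within 500 bases in the opposite direction was found for 20 of the 67 genes (29.9%), against 13.8% of tested genes and 7.53% of all coding genes. Mrpl46 and Mrps11 form such a pair with each other, their starts 42 bases apart. Of the 17 tested partners outside the family, 5 rose (29.4%, against 18.4% of all genes tested) and 2 fell (11.8%, against 12.7%) in LZ with Bach2(f/f), with a median difference of 0.09. In 2 pairs both genes rose, Mrpl18 with Tcp1, a cytosolic chaperonin subunit (0.25 ± 0.04, adjusted p = 0.00519, limma), and Mrps27 with Ptcd2 (0.22 ± 0.07, adjusted p = 0.0492, limma). Exons of Mrpl18 and Tcp1 overlap on opposite strands, so these 2 genes may share reads. In another 2 the partner fell while the ribosomal gene rose: Mrpl2 rose by 0.28 beside Klc4, a kinesin light chain (-0.63 ± 0.12, adjusted p = 0.0111), and Mrpl49 rose by 0.23 beside Fau, which encodes a cytosolic ribosomal protein (-0.32 ± 0.07, adjusted p = 0.0144), by limma.

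Other genes of mitochondrial translation were counted in LZ from lists of known function, against 18.4% of all genes tested that rose and 12.7% that fell. Of the 7 mitochondrial ribosomal proteins with other symbols, 5 rose with Bach2(f/f) (71.4%) and none fell, with a median difference of 0.27. Ptcd3, a small-subunit protein, went from 25.6 ± 0.614 to 33.0 ± 1.74 FPKM (0.35 ± 0.06, adjusted p = 0.00758, limma), and Chchd1, also of the small subunit, from 66.6 ± 7.95 to 90.8 ± 7.85 FPKM (0.44 ± 0.10, adjusted p = 0.0159, limma). Of 24 assembly factors tested, 5 rose (20.8%, near the background) and none fell (median 0.12). Fastkd2, an RNA-binding factor, went from 7.40 ± 0.443 to 10.3 ± 0.384 FPKM (adjusted p = 0.00626, limma). Noa1, a GTPase of small-subunit assembly, went from 16.3 ± 1.14 to 20.9 ± 0.0215 FPKM (adjusted p = 0.00648, limma). Of 14 translation factors, 6 rose (42.9%) and 2 fell (14.3%, near the background), with a median of 0.16. Among them Tufm, the elongation factor that brings transfer RNA to the ribosome, went from 60.8 ± 1.45 to 75.5 ± 1.22 FPKM (0.31 ± 0.05, adjusted p = 0.00544, limma), and Taco1, an activator of Cox1 translation, rose by 0.32 ± 0.06 (adjusted p = 0.00917, limma).

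The import machinery, which brings ribosomal proteins into mitochondria, had 14 of 24 genes risen (58.3%) and none fallen in LZ, with a median difference of 0.24. Timm8a1, a chaperone of the intermembrane space, went from 29.2 ± 0.749 to 48.5 ± 1.31 FPKM (0.71 ± 0.05, adjusted p = 0.000887, limma), and Hspa9, the matrix chaperone that pulls proteins in, from 78.6 ± 0.212 to 125 ± 2.62 FPKM (0.66 ± 0.05, adjusted p = 0.000984, limma). Of 8 tested genes of mitochondrial DNA transcription and replication, 1 rose (12.5%, against 18.4% of all genes tested) and 1 fell (12.5%, against 12.7%). Neither share was above the background. Peo1, the helicase, rose (0.32 ± 0.10, adjusted p = 0.0480) and Polg2, a polymerase subunit, fell (-0.34 ± 0.07, adjusted p = 0.0149), by limma. In the respiratory chain, whose assembly needs mitochondrial translation, 25 of 77 rose (32.5%) and 2 fell (2.6%), with a median of 0.19. Cytosolic ribosomal proteins had 7 of 82 risen (8.54%) and 6 fallen (7.32%), with a median of -0.05, and the difference between the families was not tested. In DZ, none of the 7 proteins with other symbols rose by limma, and 2 of 24 assembly factors (8.33%), 2 of 14 translation factors (14.3%) and 4 of 24 import genes (16.7%) did, against 6.63% of all genes tested.

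Among 8 tested regulators of nuclear genes for mitochondria, Pprc1, a coactivator of the PGC-1 family, rose in LZ from 8.50 ± 0.688 to 14.7 ± 0.398 FPKM (0.72 ± 0.07, adjusted p = 0.00125, limma) and in DZ from 5.94 ± 0.102 to 8.81 ± 0.248 FPKM (0.50 ± 0.07, adjusted p = 0.00901, limma). Ppargc1b, another coactivator of that family, rose in LZ from 1.79 ± 0.190 to 2.65 ± 0.168 FPKM (adjusted p = 0.0259, limma), and Esrra, the nuclear receptor it partners, fell from 13.8 ± 0.729 to 11.5 ± 0.243 FPKM (-0.24 ± 0.06, adjusted p = 0.0191, limma). Nrf1 (0.05), Gabpa (0.13), Gabpb1 (0.14) and Yy1 (0.06), which bind the motifs named above or partner a factor that does, did not pass in LZ. Myc was at 37.1 ± 6.42 and 53.9 ± 2.01 FPKM in LZ and did not pass (0.54 ± 0.27, adjusted p = 0.174, limma). Ppargc1a was below the filter. Of the 8 tested regulators, 2 rose in LZ (25%, against 18.4% of all genes tested) and 1 fell (12.5%, against 12.7%).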

How the data were processed

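Libraries were prepared with an NEBNext Ultra kit from the RNA of roughly 30000 sorted cells each, per the labels' protocols. The authors deposited 1 table of FPKM values for 23234 gene symbols and 8 libraries. The submitters' processing notes list the mm9 build, TopHat2 2.0.8 and Cufflinks 2.1.1; their roles, options and the gene annotation are not given in the sources used here. The row holding library codes was dropped, and counts were not analysed here, so no test on counts was run.

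Values were taken as log2(FPKM + 1), which understates changes of low genes. The 10610 genes reaching 1 FPKM in 2 or more libraries were fitted together (limma 3.58.1, R 4.3.3), with a mean for each of the 4 groups, a variance trend on intensity, 4 residual and 2.46 prior degrees of freedom. The 2-sided p-values were adjusted by Benjamini-Hochberg for each comparison separately. The labels do not say that replicate numbers pair samples, and no block was used. Correlations of replicate deviations between groups ran from -0.108 to 0.124. Such values cannot show whether samples shared a pool or a sort. Replicates correlated at 0.946 to 0.96. The fit was checked on simulated data. Promoters came from RefSeq tables of GRCm38.p6, exon overlaps from GENCODE M21, and figures were drawn with matplotlib 3.10.9.

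The family, the lists and the rule for named genes were chosen with earlier results of these data known. Named genes were the 4 highest and 2 lowest of each subunit by level. In each comparison they were also the 5 Mrpl and 4 Mrps genes with the smallest p in the direction of the median, and up to 3 past the threshold the other way. Of each other list they were the 2 with the smallest p in LZ, and all regulators. Mrps16 and Mrpl41 in LZ, the S18 comparison and the head-to-head pairs were named after their values were seen. Exons of 17 of the 76 genes overlap another coding gene, and 3 have annotated pseudogenes that carry their symbol, so their values are uncertain. Pseudogenes under other names were not searched, so other genes of the family may have them too. The fit was repeated with a replicate block, with other filters, pseudocounts, scalings and no variance trend, on the compared libraries alone, and without each library.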

Additional observations from a re-analysis of the deposited data

How the results depend on the processing

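The comparisons made gene by gene for the named genes were counted once per alternative fit. Of these, 715 kept their direction and side of the threshold, 107 lost the threshold, 12 gained it and 0 turned direction. Some of these fits left 1 library in a group. Several, such as the replicate block and the other filters, leave the difference itself unchanged, so direction could not turn there. Most of these genes were also picked for small p-values, so the 0 says little. Leaving out each library in turn gave 13 to 34 genes higher with Bach2(f/f) in LZ, 0 to 3 in DZ, 1 to 4 higher and 2 to 7 lower in LZ than DZ with Bach2(+/+), and 10 to 23 higher and 0 to 4 lower with Bach2(f/f). Without both LZ replicate 2 libraries, chosen after seeing the myeloid markers, these counts were 10, 0, 2, 3 and, for lower genes with Bach2(f/f), 1. The replicate block, a pairing that the labels do not state, gave 1 gene higher in DZ in place of 4. In LZ it gave 32 in place of 31 (16.6% of all genes tested rose then). The DZ count was 1 with no filter, 1 with no intensity trend, 2 with upper quartile scaling, 7 with total scaling and 0 with only the libraries compared. Between zones with Bach2(+/+), quantile normalization gave 7 higher, total scaling 2 higher and 13 lower, and only the libraries compared 0 higher and 3 lower. With Bach2(f/f), total scaling gave 13 higher and 6 lower, and no filter 1 lower. The LZ genotype count was 23 after quantile normalization (15.3% of all genes tested rose then) and 21 by upper quartile scaling (14.6%). In LZ the share of all genes that rose moved too, from 10.4% with no filter to 22.6% with a filter of 5 FPKM. Counts given here without that share are therefore not results about the family on their own. The cause was not tested. With 2 libraries a group and FPKM in place of counts, precision is limited, and differences under about the size of those called may be missed.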
